A study of Caenorhabditis elegans with 2 samples.

Results

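Of the 2319 nuclear peaks of SNPC-4 in the thresholded list, 241 (10.4%) had their summit within 250 bp of the 5′ end of a gene annotated as ncRNA, lincRNA or antisense_RNA and are described here. SNPC-4 corresponds to mammalian SNAP190, a DNA-binding subunit of SNAPc, the complex that activates small nuclear RNA (snRNA) genes. The members were chosen by the position of their summits relative to annotated starts, with some genes left out by name. Earlier results of these data were known when the rule was set. Of 365 nuclear peaks with such a start in the window, 122 were left out because a tRNA, snRNA, snoRNA, sls- or smy- start (the last pair are spliced leader and SmY RNA genes) lay within 250 bp too. Another 2 had only starts of the 11 genes that the rule leaves out by name. The 241 peaks lay nearest to 236 genes, since lfor-1, C16C2.7, F44E5.16, F52D10.9 and F48C1.13 each had 2 peaks.

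SNPC-4 tagged with green fluorescent protein (eGFP) was mapped by chromatin immunoprecipitation and sequencing (ChIP-seq) in whole first-stage (L1) larvae of Caenorhabditis elegans. The single group consists of 2 biological replicates of strain OP179, with the genotype unc-119(ed3) III; wgIs179 and pooled sexes. The tagged protein comes from an inserted transgene, so its level need not be that of the native protein, and in whole larvae the cells that carry a given peak cannot be told apart. With no other genotype or condition, the groups set side by side are groups of peaks or of genes. Peaks are not replicates, and no p-value is given for any difference between such groups.

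SNAPc binds an element a short way upstream of the start of snRNA genes and recruits RNA polymerase II at most of them and RNA polymerase III at U6 and a few others. In the worm the complex also serves the spliced leader RNA genes, and SNPC-4 takes part in the transcription of piRNAs in the germ line. The genes considered here fall outside those classes. The ncRNA biotype of the worm annotation is a mixed class, in which most entries are transcripts of unknown function, while lincRNA and antisense_RNA entries are long transcripts between genes or opposite to them. A summit at an annotated start does not show which transcript, if any, the site serves, and where an ncRNA and a protein-coding gene share a promoter region the same summit counts for both.

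The nearest gene was an ncRNA entry at 237 peaks and a lincRNA entry at 4, and no antisense_RNA gene was the nearest. The median length of the 236 genes was 147 bp, with quartiles of 121 and 211 bp and a range of 49 to 14770 bp. At 168 peaks (69.7%) the nearest gene was under 200 bp, the usual lower limit for a long ncRNA, and only 7 of the 236 genes reached 1000 bp. The nearest gene was 200 bp or longer at 73 peaks (30.3%), against 21.3% of all 8058 genes of the 3 biotypes. The median length of those 8058 genes was 141 bp, so short entries are common in the annotation as a whole. The working description of the set as long and antisense ncRNA genes is therefore met by a minority of it, and the set is called peaks at ncRNA starts below. With every start in the window counted, the 241 peaks covered 321 genes, of which 6 were lincRNA and 2 antisense_RNA genes. A total of 82 peaks had more than 1 start. At 66 peaks (27.4%) starts lay on both strands, and at 64 of these a pair of ncRNA genes overlapped on opposite strands. How often ncRNA genes overlap in this way over the whole annotation was not counted.

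Sequences around 6 of the summits are shown first. They are read on the strand of the element, and capitals mark the 26-base match to an element that was fitted to the upstream sequences of bound snRNA, spliced leader RNA and snoRNA genes, none of them in the set. Each match is flanked by 10 bases on either side, on build ce11.
F44E5.16: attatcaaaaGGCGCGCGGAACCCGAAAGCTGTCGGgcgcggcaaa
F25H10.3: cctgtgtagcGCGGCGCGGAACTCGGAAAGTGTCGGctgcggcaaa
B0212.7: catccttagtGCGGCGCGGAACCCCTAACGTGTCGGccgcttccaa
C17G10.14: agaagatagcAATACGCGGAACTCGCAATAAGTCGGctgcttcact
yrn-1: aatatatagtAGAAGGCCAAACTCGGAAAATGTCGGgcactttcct
C24H11.13: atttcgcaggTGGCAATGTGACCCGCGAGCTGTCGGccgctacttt
The capitals lie at chrII:11756717-11756742 (F44E5.16), chrX:2763961-2763986 (F25H10.3), chrII:5599689-5599714 (C17G10.14) and chrIV:7499433-7499458 (yrn-1), all on the plus strand, and at chrIV:3551931-3551956 (B0212.7) and chrIII:11793031-11793056 (C24H11.13) on the minus strand. Such a match stood at 13 of the 241 summits. The next sequences are examples of summits without one. They are 101 bp around the summit on the strand of the ncRNA gene, and capitals mark runs of GAGAGAGA or its reverse complement TCTCTCTC, where present. F52H2.13, W06H8.16 and T19C3.11 hold this repeat, which stood at only 26 of the 241 summits (10.8%), so the examples overrepresent it.
B0361.13: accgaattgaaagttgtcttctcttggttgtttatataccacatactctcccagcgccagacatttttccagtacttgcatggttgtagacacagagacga
F46B6.15: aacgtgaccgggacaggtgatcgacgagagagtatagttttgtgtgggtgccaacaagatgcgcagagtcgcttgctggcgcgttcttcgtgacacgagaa
M163.12: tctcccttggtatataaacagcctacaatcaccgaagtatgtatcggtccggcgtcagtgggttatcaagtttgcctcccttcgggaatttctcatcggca
F52H2.13: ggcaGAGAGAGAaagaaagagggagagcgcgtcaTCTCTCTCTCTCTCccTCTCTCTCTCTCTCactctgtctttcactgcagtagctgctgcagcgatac
W06H8.16: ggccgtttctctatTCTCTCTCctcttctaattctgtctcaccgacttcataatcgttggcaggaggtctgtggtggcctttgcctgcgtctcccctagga
T19C3.11: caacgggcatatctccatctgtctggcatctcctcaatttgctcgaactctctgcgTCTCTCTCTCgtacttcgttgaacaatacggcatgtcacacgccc
These windows are chrIII:7278621-7278721 for B0361.13, chrV:9789984-9790084 for F46B6.15, chrX:14477505-14477605 for M163.12, chrX:2536584-2536684 for F52H2.13, chrV:6224627-6224727 for W06H8.16 and chrIII:623908-624008 for T19C3.11. B0361.13, F46B6.15 and M163.12, which rank among the 4 highest peaks of the set, hold neither the element nor the repeat in this window, whereas the lower peak at F52H2.13 holds several runs of the repeat.

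In the median, signal at these peaks was close to that of all nuclear peaks. Signal means the value that the authors gave each peak, of unknown scale, and serves here only to compare peaks within a list. It ran from 32.5 to 1733 with a median of 51.9 and quartiles of 40.0 and 74.5 at the 241 peaks, against a median of 53.0 and quartiles of 40.0 and 79.97 over all 2319 nuclear peaks. The 241 peaks held 6.29% of the summed signal and 10.4% of the peaks. Only 2 peaks exceeded a signal of 1000, 28 lay between 100 and 1000, 97 between 50 and 100, and 114 at 50 or less. There were 117 (48.5%, exact 95% binomial interval 42.1 to 55.0%, counting error only) among the 1159 highest nuclear peaks, which by construction are 50% of that list. Of the 241 peaks, 4 ranked among the highest 100 nuclear peaks and 42 among the highest 500. For the 766 other peaks at protein-coding starts the counts were 5 and 161. For the 1076 peaks with no protein-coding, ncRNA or small RNA start in the window they were 30 and 209. All nuclear peaks include those near tRNA, snRNA, snoRNA, sls- or smy- starts, which the rule leaves out.

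The highest peak of the set lay upstream of C17G10.14, a 577 bp ncRNA gene on chromosome II. Its signal was 1733 in the thresholded list, rank 30 of the nuclear peaks, and 654 in replicate 1 and 1089 in replicate 2. The summit was 224 bp upstream of the annotated 5′ end and 329 bp upstream of the nearest protein-coding start, C17G10.10, which is transcribed away from it. The element shown above ends 215 bp upstream of the ncRNA start, on its strand. That start falls within C17G10.6, on the opposite strand.

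The next peak, at B0361.13 on chromosome III, had a signal of 1117, with 430 in replicate 1 and 698 in replicate 2. It lay in an intron of B0361.11, 140 bp upstream of the 63 bp ncRNA and, on the other strand, 44 bp upstream of the microRNA gene mir-2214. It held no match to the element. The fall from there to the rest was steep, since the third peak, at F46B6.15, had a signal of 247. Its summit was 1 bp upstream of the ncRNA start and 327 bp upstream of ztf-7, and its replicate signals were 112 and 132.

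The other peaks with a signal above 200 were M163.12 (232), C24H11.13 (207), T28B11.18 (202) and F45H7.11 (202). M163.12 is a 78 bp gene whose summit lay 10 bp inside it, and an snRNA gene, M163.13, starts 688 bp from that summit. C24H11.13 is annotated opposite a tRNA gene over nearly the same bases, and the summit lay 274 bp from the tRNA start, just beyond the window that would have left it out. T28B11.18 lies in an intron of T28B11.1 and F45H7.11 in an intron of hecw-1, both on the strand opposite to the host gene. Each of these overlaps another ncRNA gene on the other strand, T28B11.4 and F45H7.13. In each of the 4 cases the peak was present in both replicates, with replicate 1 signals of 60.5 to 106 and replicate 2 signals of 114 to 149.

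Several of the 25 highest peaks lay in the upstream region of well-known protein-coding genes. The summit at F56F3.11 (164) was 255 bp upstream of rps-1, a ribosomal protein of the small subunit, and that at F54C9.17 (115.1) was further upstream of rpl-5, of the large subunit. LLC1.120 (148) lay 248 bp upstream of dld-1, a dihydrolipoamide dehydrogenase, and W06B11.7 (148) lay 293 bp upstream of puf-9, a Pumilio-family RNA-binding protein. F38E11.25 (119) lay 292 bp upstream of copb-2, a coat protein of Golgi vesicles. In these 5 cases the nearest ncRNA runs in the direction opposite to the protein-coding gene. At rps-1, rpl-5 and puf-9 another ncRNA (F56F3.10, F54C9.16 and W06B11.9) starts within the window on the strand of the coding gene. The summit at C30C11.14 (126) lay between rpn-3, a regulatory subunit of the proteasome, and hsp-110, a chaperone, 201 bp upstream of the first and 243 bp upstream of the second. Of the remaining high peaks, Y105C5A.1284 (177), F25D1.11 (133), F36H12.65 (110) and F26F4.14 (108) had no protein-coding start within 500 bp. F36H12.65 had no summit in replicate 1, and a pseudogene that overlaps it starts 124 bp from the summit.

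lfor-1 and lfor-2 need separate mention, because their sequences are 98.3% identical (297 of 302 aligned positions). The summit within lfor-2 had a signal of 152 and no summit in the list of replicate 1 within 100 bp, against 101 in replicate 2. lfor-1 had 2 peaks, with signals of 135 and 134, and replicate signals of 51.4 and 58.5 at the summit inside the gene and 46.7 and 87.4 at the summit 135 bp upstream of it. Only 4.07% of the 30-base words within 100 bp of the lfor-2 summit occur once in the genome, and 16.9% at the lfor-1 summit inside the gene, so the values of this pair are uncertain. Among all 241 peaks the median was 100% and 6 peaks were under 50%, of which F36H12.65, K08H10.13, F16A11.7 and srpr-2.2 are the other 4.

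How far the replicates shared these peaks was read in 2 ways, neither with a test. A summit within 100 bp among the 2319 highest nuclear peaks of both replicates was found for 141 peaks (58.5%, exact 95% binomial interval 52.0 to 64.8%, counting error only), against 63.6% of all nuclear peaks and 68.8% of the 766 other peaks at protein-coding starts. In the full relaxed lists, which hold 30000 peaks each, 207 (85.9%, exact 95% binomial interval 80.85 to 90.03%) had a summit in both replicates, against 93.1% of all nuclear peaks. Both intervals treat peaks as independent, and all nuclear peaks include the peaks of the set. The intervals therefore cannot decide whether the shares differ. In the full relaxed lists replicate 1 had no summit at 23 peaks and replicate 2 none at 11, and no peak lacked one in both. The thresholded list was made by the authors from the agreement of these same replicates, so such shares are partly built in. Across the 207 peaks, Spearman's rho of the replicate signals was 0.571, against 0.615 over all nuclear peaks present in both. It is a description across peaks, which share the same libraries.

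By the ratio of their ranks, the 2 most extreme peaks in each direction were as follows. Y48B6A.18 had a signal of 6.78 in replicate 1 and 48.2 in replicate 2, and T28B11.7 had 6.30 and 32.9. ZK1290.22 had 32.4 in replicate 1 and 9.63 in replicate 2, and C17G10.11 had 24.6 and 5.52. These 4 peaks lie in the lower and middle part of the list, with thresholded signals of 33.1 to 59.8.

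**Figure D1:**
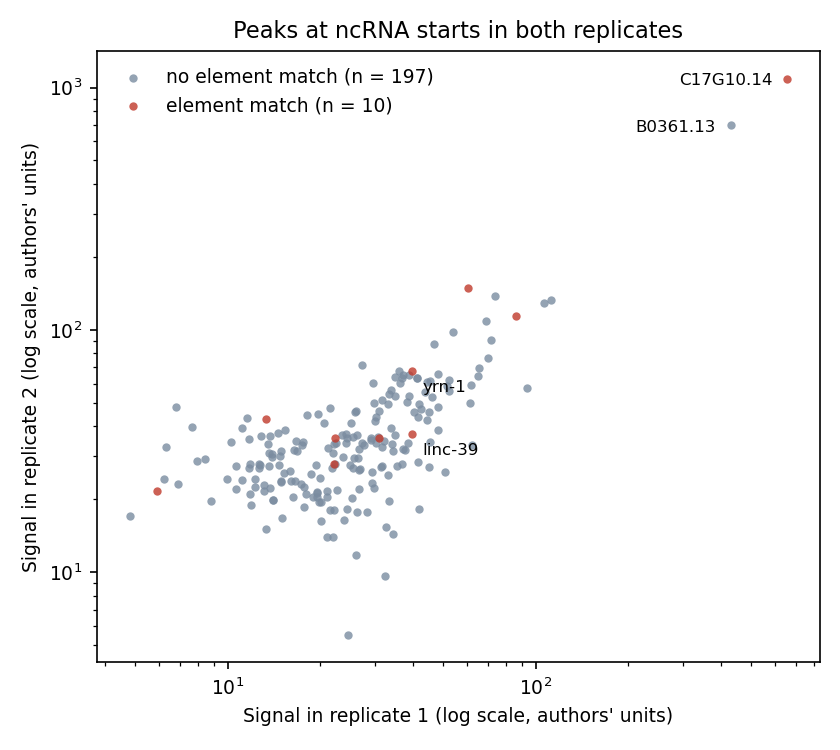
Signal of the 207 peaks at ncRNA starts that had a summit in both replicates, replicate 1 on the horizontal and replicate 2 on the vertical axis, both on log scales in the authors' units. C17G10.14 (654 and 1089) and B0361.13 (430 and 698) stand far above the rest, and the 10 peaks with an element match, in red, are spread over the whole range.

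The rule used the size of the distance to the ncRNA start but not its direction. Summits lay a median of 24 bp downstream of the ncRNA start, with quartiles 43 bp upstream and 82 bp downstream. They were downstream at 143 peaks (59.3%) and upstream at 98, and 118 summits (49%) fell inside the annotated ncRNA. Among the 766 other peaks at protein-coding starts only 67 (8.75%) lay downstream, with a median of 126 bp upstream. The stretch 20 to 80 bp upstream held 36 of the 241 summits, against 163 of the 766 other summits at protein-coding starts. Summits downstream and upstream of the ncRNA start had like signals, with medians of 51.7 and 53.1. The 36.9% of summits within 50 bp of the start include F46B6.15 (1 bp upstream, signal 247), C08F8.13 (2 bp downstream, 93.0) and F27C1.17 (1 bp upstream, 87.1).

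**Figure D2:**
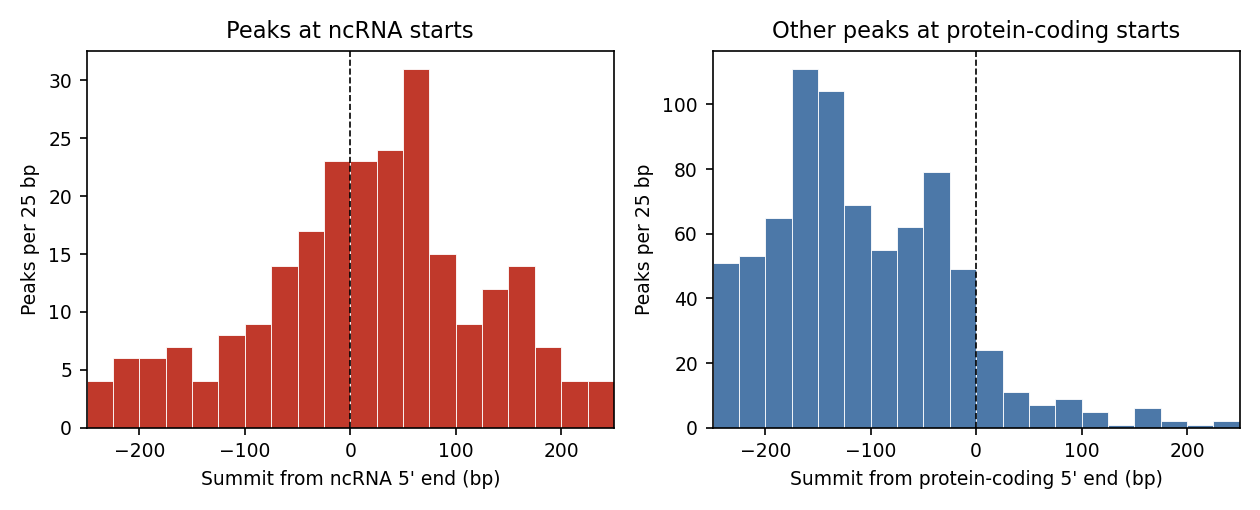
Number of peaks per 25 bp of distance from the summit to the nearest 5′ end, for the 241 peaks at ncRNA starts (left) and the 766 other peaks at protein-coding starts (right), with upstream distances negative. Summits at ncRNA starts spread to both sides around a median 24 bp downstream, whereas those at protein-coding starts lie mostly upstream, with a median at 126 bp.

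A protein-coding start lay within 250 bp of 60 of these summits (24.9%), against 36.3% of all nuclear peaks. Read against that start, the same 60 summits lay upstream in 56 cases, with a median of 137 bp, much as at the other protein-coding starts. At 41 of the 60 (68.3%) the nearest ncRNA is on the strand opposite to the protein-coding gene, and in 33 of these its start lies upstream of the protein-coding start, a median of 93 bp away over the 41. At the other 19 it is on the same strand, and its start is upstream in 18, with a median of 212 bp over the 19. Within 1000 bp a protein-coding start was found for 136 summits, of which 122 were upstream of it by a median of 241 bp over the 136, and the nearest ncRNA ran on the opposite strand at 83. These strand shares were not counted over all ncRNA genes near a protein-coding start. They therefore cannot show whether the arrangement is particular to these peaks. Signal was 56.7 in the median at the 60 peaks near a protein-coding start and 50.3 at the other 181. Both replicates had a summit among their 2319 highest at 63.3% and 56.9% of them.

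Of the 60 summits near a protein-coding start, 13 (21.7%) lay near a gene of 12 lists of housekeeping and other families chosen by gene name, against 97 (11.5%) of the 842 nuclear peaks near such a start, which include the 60. Ribosomal protein genes had 4 of the set's summits and 13 of all nuclear summits, proteasome genes 3 and 14, oxidative phosphorylation genes 2 and 7, and chaperone genes 2 and 10. Translation factor, histone and nuclear hormone receptor genes had 1 each, against 15, 5 and 6. Mitochondrial ribosomal protein, vesicle and proton pump, splicing, collagen and ubiquitin genes had none, against 14, 5, 7, 1 and 1.

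At the ribosomal protein genes the summits lay 181 to 240 bp upstream of the coding genes. The peak shared by rps-13 and C16A3.15 had a signal of 67.8, with 34.2 in replicate 1 and 33.6 in replicate 2. Its summit was nearer to the start of nfx-1 (176 bp) than to that of rps-13 (206 bp). The peak shared by rpl-39 and C26F1.13 had 64.1, with 19.7 and 45.1. The peak at rpl-1 had the lowest signal of the 4, 34.1, with 9.97 and 24.2. The peak shared by rpl-24.1 and D1007.22 had 55.8, with 26.7 in replicate 1 and no summit in replicate 2. Of the proteasome genes, rpn-3 shared its peak of 126 with C30C11.14 and hsp-110, and rpt-2, an ATPase of the regulatory particle, had a peak of 102. The gene pas-4, a subunit of the core particle, had 41.8, at a summit nearer to rpb-3 (107 bp) than to pas-4 (170 bp). The translation elongation factor gene eef-1B.1 had a summit 2 bp upstream of its start and 61 bp within the ncRNA F54H12.9, with a signal of 112 and replicate signals of 52.1 and 56.1. atp-3, a subunit of the mitochondrial ATP synthase, had a summit 23 bp upstream of it and 1 bp upstream of F27C1.17, with a signal of 87.1. All 13 summits lay upstream of their listed coding genes. Relative to the nearest protein-coding start, so did 56 of the 60 summits near one and 698 of the 766 other peaks at protein-coding starts.

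Most ncRNA genes of the set lie between protein-coding genes. The start of the nearest ncRNA was outside any protein-coding gene at 180 peaks (74.7%), against 55.2% of the 8047 genes of the 3 biotypes that the rule admits. It lay inside a protein-coding gene on the other strand, as for an antisense transcript, at 41 peaks (17%), against 31.3%. Inside on the same strand it was found at 20 (8.3%), against 13.5%, and 1 of the 41 lay inside genes on both strands. Median signals were 50.8 outside, 58.6 inside on the other strand and 55.9 inside on the same strand. Summits themselves lay outside protein-coding genes at 186 peaks (77.2%), in an intron at 51 (21.2%), in a coding exon at 3 and in another exonic part at 1. Over all nuclear peaks the shares were 72.3% outside and 22.8% in an intron.

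**Figure D3:**
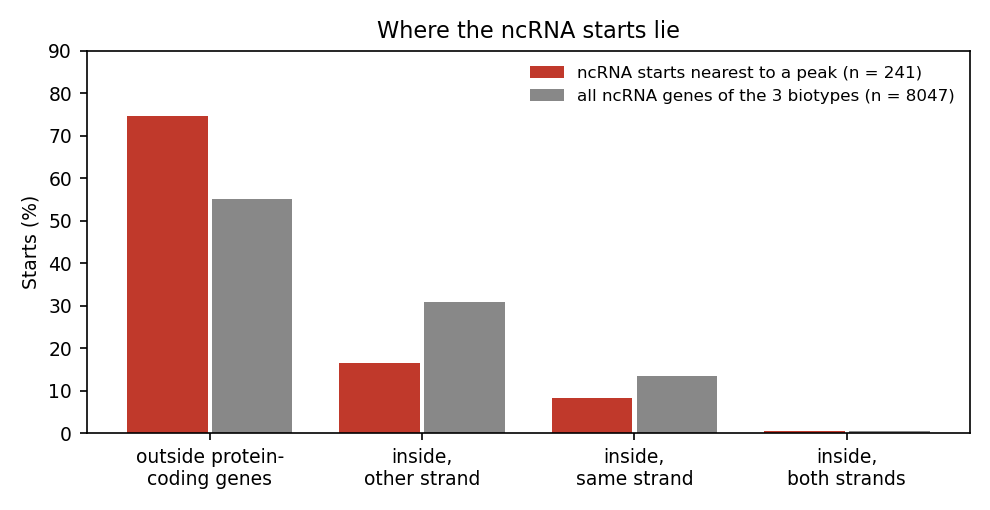
Share of ncRNA starts by their place relative to protein-coding genes, for the start nearest to each of the 241 peaks (red) and for the 8047 genes of the 3 biotypes (grey). Starts at peaks lie outside protein-coding genes at 74.7% against 55.2%, and inside on the other strand only at 16.6% against 30.8%.

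Counted by gene, few ncRNAs carried a peak. A thresholded summit lay within 250 bp of 467 of 8058 genes of the 3 biotypes (5.8%), against 5.09% of protein-coding genes. This count includes genes near small RNA starts. By biotype it was 459 of 7764 ncRNA genes (5.91%), 6 of 194 lincRNA genes (3.09%) and 2 of 100 antisense_RNA genes (2%). In the relaxed pooled list, which includes background by design, 2019 of the 8058 genes (25.1%), 48 of 170 linc- genes (28.2%) and 11 of 57 anr- genes (19.3%) had a summit in the window.

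The peaks at lincRNA genes were of low to middle signal. linc-78 shared the peak of AH9.7, with a signal of 91.2 and replicate signals of 34.0 and 56.3, and linc-39 had 75.8, with 39.5 and 37.0. linc-81, of 2112 bp, had 55.7, with 15.4 and 38.8, and its summit lay 2 bp upstream of the start. K07C10.8 shared a peak of 54.3 with K07C10.3. linc-91 had 42.7, with a summit in replicate 1 (33.8) and none in replicate 2. linc-143, in an intron of the insulin receptor gene daf-2 and on its strand, had 35.6, with 6.20 and 24.2. The antisense_RNA genes anr-36 and F48C1.15 had signals of 62.0 and 49.1 at summits 168 and 183 bp inside them, each nearer to another ncRNA. None of these peaks ranked above 452 of the nuclear list.

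Among long ncRNAs with a known role, tts-1, which associates with ribosomes in long-lived worms, had a summit 95 bp upstream of its start. Its signal was 53.1, with 11.6 in replicate 1 and 43.3 in replicate 2, and the same summit lay 62 bp inside F09E10.14 on the same strand. tts-2 and rncs-1, an RNA that inhibits Dicer, had summits only in the relaxed list, with signals of 14.2 and 12.4. For lep-5, which acts in the timing of development, neither list had a summit in the window. yrn-1, the worm Y RNA, which binds the Ro protein and is short (105 bp) and not a long ncRNA, had a signal of 108, with 39.7 in replicate 1 and 67.6 in replicate 2. The longest gene of the set, C30E1.9 on chromosome X (14770 bp), had a summit 153 bp upstream with a signal of 147, and 54.0 and 97.9 in the replicates.

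The fitted element was scarce. A match within 50 bp of the summit stood at 13 peaks (5.39%, exact 95% binomial interval 2.9 to 9.05%), against 15.2% of all nuclear peaks. A match had to score as high as the 99th percentile of 4638 windows 500 bp away from the summits, or higher. It was found at 33.8% of the 234 peaks near tRNA, snRNA, snoRNA, sls- or smy- starts, 21.7% of the 1076 peaks away from all these starts and 3.39% of the 766 other peaks at protein-coding starts. The matrix was fitted at bound genes of the small RNA group, where 72 of the 108 sequences held a match, so the share there, and through it part of the 15.2%, is built in. Without the peaks near those starts the share was 13.1% of 2085 nuclear peaks. Within the set it stood at 1 of the 60 peaks near a protein-coding start and 12 of the other 181. Signal was 57.6 in the median with a match and 51.5 without. A match describes letters in a window, and no match says only that the letters are not there.

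At the snRNA, spliced leader RNA and snoRNA genes used for the fit, the matches ended a median of 43 bp upstream of the start, on the gene's strand. Of the 13 matches, 3 were on the gene's strand and ended 30 to 50 bp upstream. At F44E5.16 the match ended 43 bp upstream, with a signal of 57.6, no summit in replicate 1 and 54.2 in replicate 2. At yrn-1 it ended 50 bp upstream, and at Y69A2AR.39 it ended 30 bp upstream, where the signal was 35.6 and the replicate signals 5.90 and 21.7. At C17G10.14 and C24H11.13 it was on the gene's strand but ended 215 and 173 bp upstream. The others lay inside the ncRNA or on the opposite strand, as at K08H10.13, which had the best score of the set and a match that ended 21 bp inside the gene, opposite to it. The score of the K08H10.13 match ranked 28 among all nuclear peaks, while its signal of 69.5 ranked 746, and 23.8% of the 30-base words around that summit occur once in the genome. At F25H10.3 the match was on the gene's strand but ended 76 bp inside the gene. Its signal was 35.1, rank 2081, with no summit in replicate 1 and 25.4 in replicate 2. The match at B0212.7 was on the opposite strand, at a signal of 48.5, with 13.3 in replicate 1 and 42.7 in replicate 2.

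A GAGAGAGA word, read on both strands within 50 bp of the summit, was counted too. It stood at 26 peaks (10.8%, exact 95% binomial interval 7.17 to 15.4%), against 5.48% of all nuclear peaks, 1.96% of the other peaks at protein-coding starts, 7.62% of the peaks away from these starts and 0.415% of windows 500 bp from the same summits. Only 2 of the 26 lay near a protein-coding start. Their signal had a median of 46.6, against 53.1 at the peaks without it, and none held the element. The strongest was W06H8.16 with a signal of 107, followed by F54D5.22 (94.8), 208 bp upstream of the chaperone gene dnj-13, R03G5.8 (83.5), 376 bp upstream of the elongation factor gene eef-1A.2, and F26D10.23 (74.5), 407 bp upstream of hsp-1. linc-81 held it as well.

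Other short words were counted in the same way. CACGTG stood at 15 peaks (6.22%), against 4.27% of all nuclear peaks. CCGCCC stood at 4.98%, against 6.94%. The core of the piRNA upstream motif stood at none of the 241 and at 0.216% of all nuclear peaks, and the B box of tRNA genes at 2.07%, against 2.41%. TATAAA and TTTCAG, the splice acceptor, were at 3.32% and 7.05% of the summits, against 5.82% and 5.13% of all nuclear peaks and 11.4% and 18.5% of the flanking windows. GC content of the summit windows had a median of 50.5%, against 48.5% for all nuclear peaks and 36.6% in the flanks, and its part in these word counts was not tested.

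**Figure D4:**
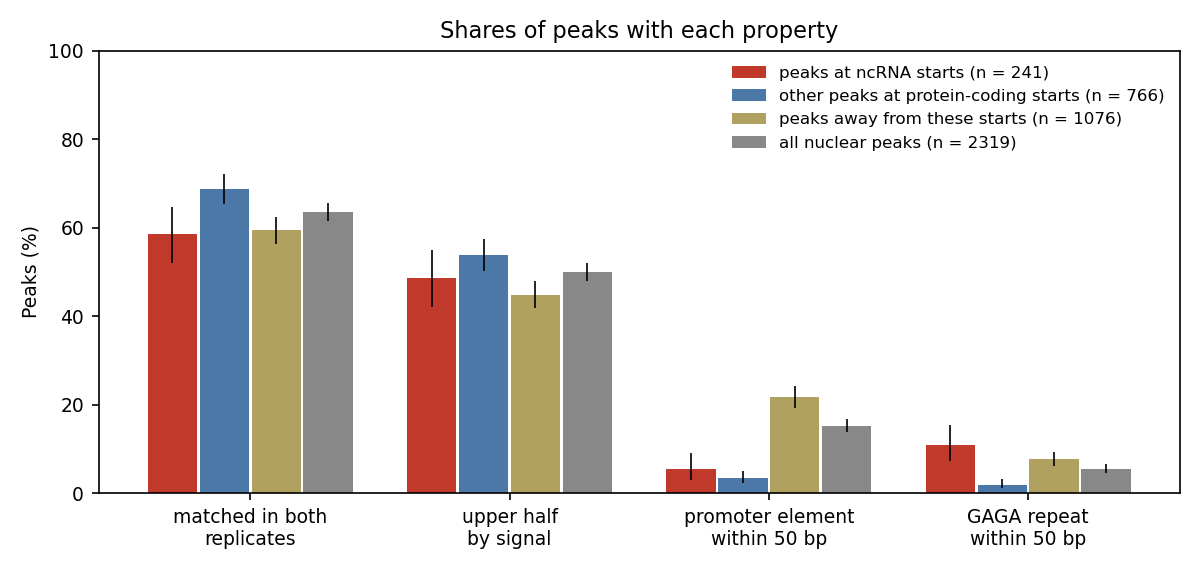
Share of peaks matched in both replicates, ranked among the 1159 highest, with an element match and with the GAGA repeat, for the peaks at ncRNA starts, other peaks at protein-coding starts, peaks away from these starts and all nuclear peaks. Vertical lines are exact 95% binomial intervals over peaks (counting error only). The peaks at ncRNA starts have the element at 5.39%, against 15.2% of all nuclear peaks, and the repeat at 10.8%, against 5.48%.

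The peaks were spread over all 6 nuclear chromosomes, with 34 on chromosome III to 44 on chromosome V, and made up 8.85% (III) to 11.7% (V) of each chromosome's peaks. Chromosome X carried 41, or 10.5% of its peaks, and holds 2564 of the genes of the 3 biotypes, more than any other chromosome. Just inside the 250 bp window were R03E9.7 (250 bp upstream, signal 48.3) and F48C1.13 (249 bp downstream, 38.0), and just outside were C18A11.13 (251 bp upstream, 155) and ZK616.62 (252 bp downstream, 99.5).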

How the data were processed

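ChIP-seq peak lists of eGFP-tagged SNPC-4 were used on build ce11 for 2 biological replicates. Fragment sizes were 150 to 350 bp per the labels. The lists come from an aligner and a peak caller not given in the sources used here. The authors deposited a relaxed list of 30000 peaks for each replicate and for the pool, and a thresholded list of 2347 (28 of them mitochondrial) made by the irreproducible discovery rate, per the deposited notes. The deposited signal of each peak is the authors' value over a control, of unstated scale. The deposited −log10 q took a single value, 2.95, throughout the thresholded list, and signal was used for ranking. Other columns deposited by the authors hold coordinates and the summit's distance from its peak start. The files hold no read counts, so depth is unknown.

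Genes and 5′ ends came from Ensembl release 115 and sequence from the RefSeq genome of the same assembly. Negative distances are upstream. The 26-base matrix was fitted by expectation maximisation to 108 sequences of 100 bp upstream of snRNA, SL RNA and snoRNA genes with a summit 20 to 80 bp upstream, and 72 of these held a match. The rule and the matrix were tested on simulated data. Members, gene lists and words were chosen with earlier results of these data known. Named genes are those at the 25 highest peaks, lincRNA and antisense_RNA genes, a list of known long ncRNAs, the peaks at the window's edge and those with the most unequal ranks in the replicates; others were chosen after their values were seen. With 1 group, no test over samples was possible. Alternatives were other windows, lists, biotypes, starts, matching distances and thresholds, and each replicate left out in turn. Python 3.11.15, numpy 2.4.6, pandas 2.3.3, scipy 1.17.1, Biopython 1.88 and matplotlib 3.10.9 were used.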

Additional observations from a re-analysis of the deposited data

How the results depend on the processing

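No paired analysis was possible because the samples form a single group. Of 62 values recomputed under an alternative, 40 stayed within the exact 95% interval of the reported value (for numbers of peaks, within 1.5 times) and 22 moved. When the highest peaks of 1 replicate replaced the thresholded list, 217 to 245 peaks met the rule, and the other shares ranged as follows: near a protein-coding start 24.9 to 25.3%, downstream of the ncRNA start 56.2 to 58.4%, among the higher-ranked peaks 51.4 to 55.3%, with the element 3.69 to 5.31%, inside a protein-coding gene on the other strand 17.6 to 18.4%, and genes with a summit 5.11 to 5.91%. A window of 100 bp gave 157 peaks, 31.2% of them near a protein-coding start, and 2.85% of genes, and one of 500 bp gave 7.21% of genes. The 1159 highest peaks held 117 of the set, 88% matched in both replicates, and 3.13% of genes. Only 8 peaks met the rule with lincRNA and antisense_RNA genes alone, of which 12.5% were near a protein-coding start, 37.5% downstream, 50% matched in both replicates, 62.5% among the higher-ranked peaks and 12.5% with the element. Without peaks near a protein-coding start, 4.73% of genes had a summit, and with genes within 1 kb joined 6.34% of loci did. The share matched in both replicates was 49% within 50 bp, 67.2% within 200 bp, 68% by overlap of intervals and 85.9% against all relaxed peaks. The element was found at 17% with the 95th percentile as threshold. The share over all nuclear peaks is not given at this looser threshold, so the 17% cannot be set against their 15.2%. The causes were not tested. Depth is unknown, so no floor can be given for starts without a peak.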

Other observations

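Of the 5 genes with 2 peaks each, F44E5.16 and F48C1.13 had 1 summit in each replicate alone, with summits matched within 100 bp. The 2 peak intervals overlap each other at F48C1.13 and at F52D10.9. A summit without a match there need not mean that the region had no peak in that replicate. At F44E5.16 the summit 21 bp upstream (signal 57.6) appeared only in replicate 2, and the summit 193 bp downstream (45.9) only in replicate 1. At F48C1.13 the summit 249 bp downstream (38.0) appeared only in replicate 2, and the summit 50 bp downstream (49.1) only in replicate 1. At F52D10.9 both summits (57.0 and 33.7) appeared only in replicate 1, whereas those of lfor-1 and C16C2.7 appeared in both replicates. Summits at ncRNA genes of 200 bp or longer had a median signal of 48.9, and 52.1% of these 73 were matched in both replicates, against 53.7 and 61.3% for the 168 at shorter genes. The 105 peaks with no protein-coding start within 1000 bp had a median signal of 48.3 and 50.5% were matched in both replicates. The 76 with a start 251 to 1000 bp away had 55.4 and 65.8%. None of these differences was tested.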
